A study of Glycyrrhiza uralensis with 12 samples.

Results

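Genes with many exons were examined in whole seedlings of *Glycyrrhiza uralensis* Fisch., a medicinal licorice of dry and saline land. A gene was taken when its first annotated mRNA had 20 or more distinct exons and the gene had a row in the gene expression table. Of the 28050 annotated genes in that table, 646 met this rule, and 616 of them reached at least 1 CPM (reads of a gene per 1000000 mapped reads of its library) in 3 or more libraries and were tested. The annotation itself held 654 such genes among 34445. The other 8, among them Glyur000783s00023120 with 28 exons, had no row in the expression table.

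Seedlings aged 45 days had been grown in sterilised sand without nutrients under 4 treatments. CK was watered with distilled water only. CK + G2 also received the endophytic bacterium *Bacillus cereus* G2, S received 75 mM NaCl, and S + G2 received the salt and the bacterium. Full-length cDNA was sequenced on a nanopore platform from 3 libraries per treatment, each from ground seedlings, so that fewer cells of a type and less RNA per cell cannot be told apart. The question of the design is what salt changed (S vs CK and S + G2 vs CK + G2), what G2 changed (CK + G2 vs CK and S + G2 vs S), and whether the effect of G2 differed with salt (the interaction).

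In plant nuclei the introns are removed from the primary transcript by the spliceosome, and the exons are joined in order. A gene with many exons needs many such steps for each molecule, and plant genes of this kind commonly encode large proteins with several domains. A full-length read spans the joined exons of 1 molecule and therefore shows which transcript it came from, which short reads cannot do directly. The deposited annotation gives no gene functions, so the genes are named by identifier, and no role is given for them. None of the carbohydrate genes that the study lists by identifier was among them.

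The 12 libraries held 3303591 to 3929023 reads, so 1 read was worth 0.255 to 0.303 CPM. On the first principal component of the genes with 20 or more exons, which held 23.5% of their variance, CK replicate 1 and CK + G2 replicates 2 and 3 stood at one end, at scores of -4.13 to -6.14. S + G2 replicate 2 stood at the other end, at 7.94. TMM factors, which scale for library composition, were 1.07 in CK replicate 1 and 1.05 and 1.09 in CK + G2 replicates 2 and 3. In S + G2 replicate 2 the factor was 0.945, and the part of composition in this component was not tested. The tissue was green: a Rubisco small chain gene, Glyur000604s00024572, had a mean of 13880 CPM in CK (SD 4837, n = 3) and 14660 CPM in CK + G2 (SD 10188). The means were 20998 CPM (SD 902) under salt alone and 24594 CPM (SD 7411) under salt with G2. The part of green tissue content in the comparisons below was not tested.

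The genes had 20 to 72 exons, with a median of 23. Their first mRNAs had a median length of 3670 bases and a median coding length of 3145.5 bases, against 1269 and 972 bases over all annotated genes. They spanned a median of 12958.5 bases on the scaffolds, of which a median of 69.8% was intron. Internal exons were short, with a median of 106 bases against 114 in the other genes, and 48.4% of them had a length divisible by 3 against 41.9% in the other genes. Such an exon can be left out of an mRNA without shifting the reading frame. Introns had a median of 176 bases against 262 elsewhere, so the introns were many rather than long. Single introns were still very long, up to 35086 bases in Glyur000478s00024539. The annotation placed 153 of the genes (23.7%) over a gene on the opposite strand, and 28 of these had such a partner at a level above their own. Whether the counting used strand is not stated, and without it the reads of both partners could be mixed. Another 29 genes contained an intron under 20 bases, and 7 genes would fall below 20 exons if these gaps were joined.

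Extremes of structure were expressed at very different levels. Glyur000400s00020163, the gene with the most exons (72, on Scaffold00400 at 35498 to 90745, minus strand), was at 3.03 ± 0.527 CPM in CK against 4.32 ± 1.58 CPM in S. Glyur000052s00005803 had 71 exons and the longer mRNA of the pair, 15875 bases, and was at 7.99 ± 1.80 CPM in CK. Glyur000713s00015587 had 69 exons and only single reads, 1 in CK replicate 3 and 1 in S replicate 1. With 62 exons, Glyur000047s00004011 averaged 13.8 CPM, and Glyur000012s00000612 and Glyur000380s00017132, both with 60 exons, averaged 17.4 and 30.7 CPM. The longest span, 70651 bases, belonged to Glyur000478s00024539 with 23 exons, and the shortest, 3924 bases, to Glyur000615s00023999 with 21 exons, which averaged 0.460 CPM. The longest span therefore did not belong to a gene with the most exons.

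Most of these genes were expressed, and at moderate levels. Reads were found in every library for 605 of 646 genes. The median level was 14.9 CPM, against 6.81 CPM over all annotated genes. Divided by the length of the first annotated mRNA the order was the opposite, 3.93 CPM per kb against 4.64, over mRNAs of greater length. A full-length read stands for 1 molecule, so this division is a description and does not correct the level. At 100 CPM or more stood 28 genes, 370 were between 10 and 100 CPM, 208 between 1 and 10 CPM, and 40 below 1 CPM. Together they took 1.70% of all CPM. Across the 646 genes the mean CPM showed no rank relation with exon number (Spearman's rho = -0.015, a description over genes that share libraries).

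**Figure D1:**
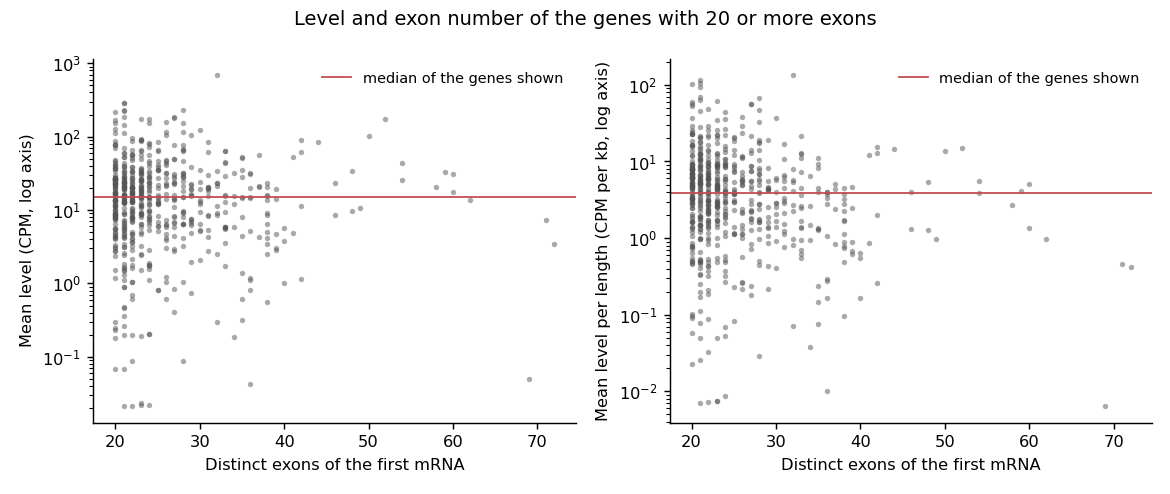
Mean level over 12 libraries (left, CPM; right, CPM per kb of mRNA; both log axes) against the number of exons of the first mRNA, 1 point per gene for 646 genes, with the median as a red line. The points spread over several orders of magnitude at 20 to 30 exons, the median is 14.9 CPM (left) and 3.93 CPM per kb (right), and the highest point is Glyur000013s00003209 at 689 CPM.

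A few genes carried much of the signal, and the 8 most abundant took 13.8% of the CPM of all 646. Glyur000013s00003209, with 32 exons, was the most abundant at 689 CPM, or 134 CPM per kb. In the CK libraries it stood at 526, 671 and 775 CPM, in S at 696, 697 and 812 CPM, in CK + G2 at 695, 466 and 557 CPM, and in S + G2 at 815, 753 and 808 CPM. The S + G2 and CK + G2 libraries did not overlap, but the difference of 0.49 ± 0.23 (log2 fold change on the log2(CPM + 1) scale ± SE) had a limma adjusted p of 0.531. The next 7 genes had 20 to 28 exons and averaged 185 to 287 CPM. Glyur000066s00006230 followed at 287 CPM, with 52.5% of its reads on the first annotated transcript, and Glyur003616s00034786 at 283 CPM, with 0.0964%. Glyur000003s00001134 and Glyur000005s00000998 were at 231 and 229 CPM, and Glyur000641s00026549 at 215 CPM. Abundance therefore came both with and without the annotated transcript. Glyur000307s00023013 had the shortest mRNA among the 8, 1934 bases, and was at 114 CPM per kb. Glyur000299s00021239 was the most uneven of them between libraries, from 120 CPM in S + G2 replicate 2 to 322 CPM in CK + G2 replicate 2.

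The reads of each gene had been assigned by the authors to annotated or assembled transcripts. The share on the annotated transcript depends on which transcripts were listed. For 80 of the 646 genes the first annotated transcript was not listed, which sets the share to 0. How assembled and annotated transcripts differ in exons was not analysed. Of all reads on the 646 genes, 24.5% were assigned to the first annotated transcript, against 30.1% over all annotated genes. The share was 24.1% ± 0.654 in CK, 24.7% ± 0.273 in CK + G2, 24.6% ± 0.775 in S and 24.4% ± 0.0495 for salt with G2 (SD, n = 3). The treatments overlapped, except that the 3 CK + G2 libraries lay above those of CK by a narrow margin. The pooled share was not steady over exon classes: it was 5.45% in genes with 1 exon, 34.0% with 2 to 4, 36.4% with 5 to 9 and 25.8% with 10 to 19 exons.

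This pooled share hid a split between genes. In 226 genes (35.0%) every read lay on annotated transcripts, in 59 (9.13%) none did, and 361 (55.9%) had reads of both kinds. The genes read only as annotated were weakly expressed, with a median of 4.75 CPM and a maximum of 49.0 CPM. Those with both kinds had a median of 22.2 CPM. Among the latter the median annotated share was 12.2%, with 167 genes below 10% and 29 above 90%. All 59 genes without annotated reads lacked a row for the first annotated transcript in the transcript table, so their share rests on the rows given there.

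**Figure D2:**
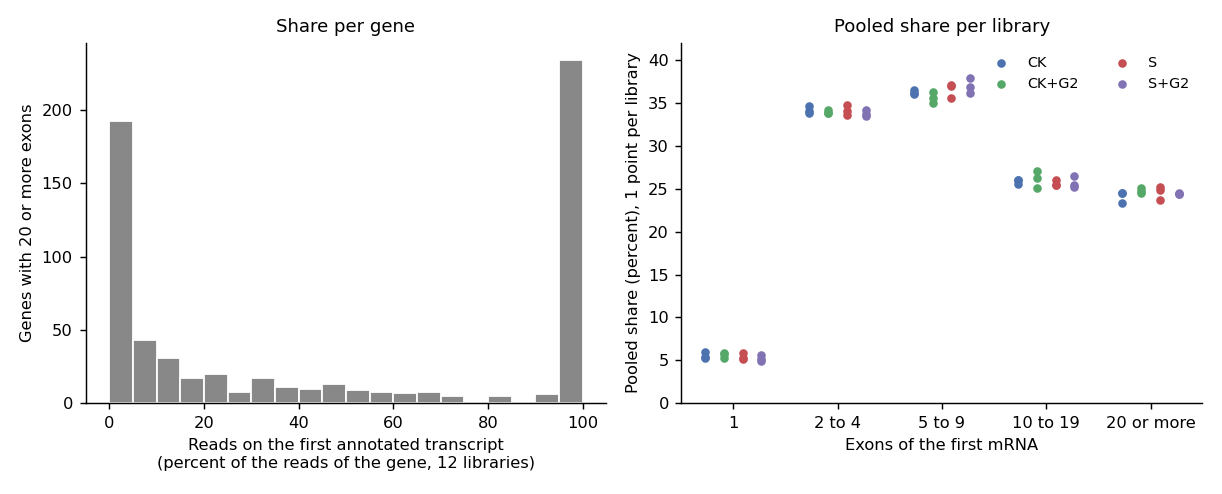
Left, number of genes with 20 or more exons by the percent of their reads on the first annotated transcript, over 12 libraries; right, pooled percent per library (1 point each, coloured by treatment) for 5 exon classes. Genes gather at both ends on the left, and on the right the libraries of the class with 20 or more exons lie between 23.3 and 25.2% in all treatments.

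Reads beyond the annotated transcripts belonged to transcripts assembled by the authors under numbered loci. A locus was assigned to a gene when its summed reads equalled the gene's unassigned reads in each of the 12 libraries, which paired 378 of the 420 genes with such reads. One assembled transcript was found in 190 of them, 2 to 4 in 158 and 5 or more in 30. Glyur003616s00034786, with 21 exons and 283 CPM, had the most, 16, and the leading one, ONT.17225.2, took 27.5% of its reads. Among 347 genes with a mean of at least 20 reads and several transcripts with reads, the leading transcript was assembled in 272 and annotated in 75, and took a median of 73.7% of the reads. It was the same in all 4 treatments in 312 of these genes and in all 12 libraries in 264. In the most abundant gene, Glyur000013s00003209, ONT.837.1 held 65.8% ± 2.83 of the reads in CK, 66.3% ± 0.941 in CK + G2, 66.0% ± 2.05 in S and 67.7% ± 1.18 in S + G2, while its annotated transcript held about 1.07% over all libraries.

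Among genes with a mean of at least 20 reads, both ends of this share were shared by many genes. All reads lay on the first annotated transcript in 89 of them, at 5.65 to 49.0 CPM with a median of 10.6 CPM, and none in 75, at 5.55 to 176 CPM with a median of 22 CPM. The levels of both sets overlapped over most of this range. The first by identifier with all reads there were Glyur000001s00000174 (42 exons, 11.3 CPM), Glyur000012s00000519 (22 exons, 16.3 CPM), Glyur000012s00000593 (21 exons, 8.91 CPM), Glyur000012s00000600 (34 exons, 11.9 CPM) and Glyur000012s00000612, described above. The first with none were Glyur000003s00001236 (22 exons, 13.4 CPM), Glyur000008s00001355 (23 exons, 56.5 CPM), Glyur000014s00002509 (20 exons, 7.84 CPM), Glyur000019s00002153 (39 exons, 14.0 CPM) and Glyur000019s00002171 (26 exons, 31.5 CPM). The most abundant of each set, chosen after their values were seen, were Glyur000041s00007098 at 49.0 CPM and Glyur000075s00007156 at 176 CPM.

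Salt without G2 (S vs CK) gave the most changed genes in the series, yet none had 20 or more exons. By limma, 0 of 616 genes passed an adjusted p of 0.05, where 1.80% of all 22751 genes tested did. At an unadjusted p under 0.05 the count was 31 (5.03%), against 15% of all genes, with 18 higher and 13 lower in S. With TMM scaling, which moves the median of all genes from -0.05 to 0.00 on the log2 scale, these became 29 higher and 11 lower. edgeR on the recovered reads called 0 genes (37 unadjusted). DESeq2 called 3 of 641, all higher in S, where it called 671 of all 28332 genes.

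The share of genes with a difference in S vs CK was lower at each step of exon number. At an unadjusted p under 0.05 it was 23.7% of genes with 1 exon, 16.7% with 2 to 4, 12.9% with 5 to 9, 9.17% with 10 to 19 and 5.03% with 20 or more exons. The adjusted calls ran in the same order, at 5.77%, 1.89%, 0.898%, 0.350% and 0%. The differences were also smaller, with a median absolute log2 fold change of 0.33 with 1 exon and 0.17 with 20 or more. The median standard error was 0.21 with 20 or more exons and 0.30 with 1 exon, and its part in this order was not tested. Restricted to genes with a mean of 10 to 50 CPM, the shares were 29.9%, 19%, 13.4%, 8.88% and 5.26%. The order held in 15 of 16 ways of fitting S vs CK. In the exception, reads of the first annotated transcript alone, genes with 1 exon (13.3%) stood just below those with 2 to 4 exons (13.8%), and those with 20 or more remained lowest at 5.36%. At the threshold, 10.8% of the 148 genes with exactly 19 exons and 5.66% of the 106 with exactly 20 had an unadjusted p under 0.05. The main fits of CK + G2 vs CK and S + G2 vs CK + G2 had the same order. In CK + G2 vs CK the shares over the 5 classes were 9.05, 6.80, 4.71, 3.44 and 2.11%, and in S + G2 vs CK + G2 11.4, 9.93, 9.60, 8.58 and 6.82%. The first annotated transcript alone broke this order in both, with 5.23 and 8.83% for 1 exon below 6.76 and 10.4% for 2 to 4. In S + G2 vs CK + G2 several other alternatives broke it too. Among these were edgeR (11.7, 9.54, 9.66, 7.35 and 7.76%) and DESeq2 (7.03, 5.20, 5.71, 4.70 and 4.52%). In S + G2 vs S (7.86, 6.39, 5.42, 3.98 and 4.71%) and the interaction (10.6, 6.96, 5.93, 3.95 and 5.19%) the genes with 20 or more exons stood above those with 10 to 19. These shares are counts over genes that share libraries, and the difference between classes was not tested.

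**Figure D3:**
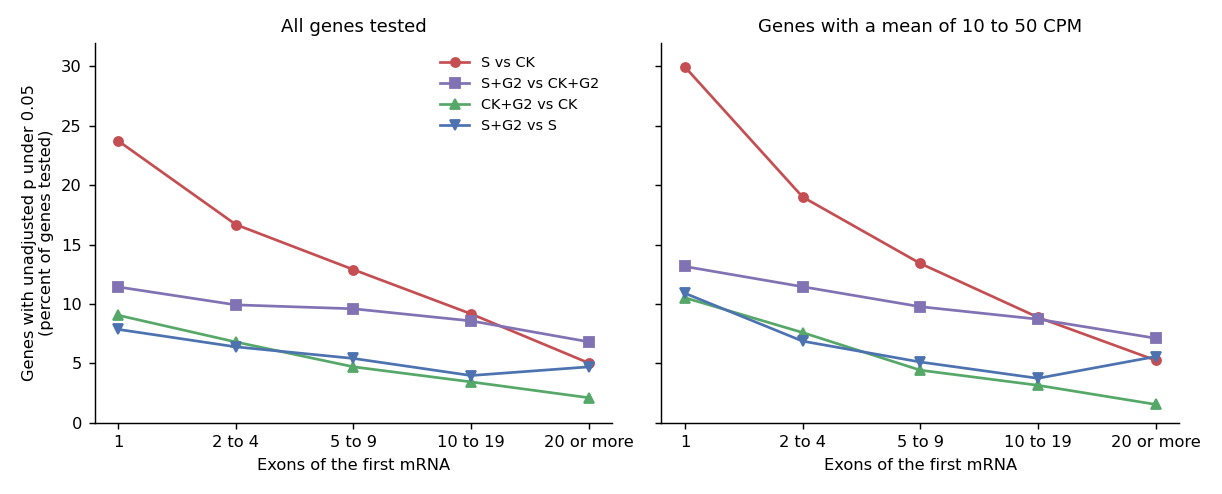
Percent of genes with an unadjusted limma p under 0.05 (vertical axis) in 5 classes of exon number (horizontal axis) for 4 comparisons, over all genes tested (left) and genes with a mean of 10 to 50 CPM (right). The S vs CK line falls from 23.7 to 5.03% on the left and from 29.9 to 5.26% on the right, and the other comparisons span a smaller range.

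The lowest p in S vs CK belonged to Glyur000152s00012715, a gene of 21 exons on Scaffold00152 (164056 to 173445, minus strand). Its level was 22.1, 21.3 and 27.2 CPM in CK and 40.6, 49.2 and 34.1 CPM in S, without overlap. The difference was 0.78 ± 0.18 (log2) with a limma adjusted p of 0.0686, and DESeq2 gave 0.0280 (range over the alternatives 0.0280 to 0.225). In S + G2 it stood at 14.4, 23.5 and 18.6 CPM, below every S library, and the S + G2 vs S difference was -1.10 ± 0.22 (limma adjusted p = 0.496). CK + G2, at 42.9, 27.4 and 27.5 CPM, lay above CK, but the values of 27.4 and 27.5 CPM were close to the highest CK library, at 27.2 CPM. The CK + G2 mean was thus above CK and the S + G2 mean below S, and the interaction of -1.53 ± 0.32 had the lowest p among the 616 genes but a limma adjusted p of 0.277. The assembled transcript ONT.5753.3 took 71.9% of its reads and the annotated one 1.72%. ONT.5753.3 was at 16.6 ± 3.93 CPM in CK, 31.2 ± 6.42 CPM in S and 12.2 ± 4.89 CPM in S + G2, while ONT.5753.1 was at 6.81 ± 1.58, 9.42 ± 1.99 and 6.31 ± 0.366 CPM.

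Glyur000051s00003411 (26 exons) was higher in salt with and without G2. Its CK libraries were at 83.1, 78.6 and 89.0 CPM and its S libraries at 116, 116 and 132 CPM, a difference of 0.53 ± 0.13 (limma adjusted p = 0.0829). In S + G2 it was at 132, 114 and 139 CPM and in CK + G2 at 97.9, 80.0 and 86.6 CPM, a difference of 0.54 ± 0.17 (limma adjusted p = 0.410). All 6 salt libraries thus lay above all 6 libraries without salt. Glyur001789s00033166 (22 exons) was at 6.69, 6.64 and 2.72 CPM in CK and at 15.4, 10.7 and 15.3 CPM in S, a difference of 1.28 ± 0.32 (limma adjusted p = 0.0837). DESeq2 gave adjusted p-values of 0.0336 and 0.0310 for these genes.

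The lowest p-values in the other direction were further from the threshold. Glyur000114s00010455 was at 64.9, 64.5 and 92.6 CPM in CK and at 57.1, 39.6 and 40.7 CPM in S, a difference of -0.68 ± 0.20 (limma adjusted p = 0.135). A gene on the opposite strand to it averaged 0.454 CPM. Glyur000877s00023926 had a mean of 15.4 ± 0.902 CPM in CK against 9.92 ± 0.875 CPM in S (limma adjusted p = 0.162). Glyur000030s00002350, at 4.10 ± 0.656 and 1.92 ± 0.283 CPM, rested on few reads (limma adjusted p = 0.191).

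**Figure D4:**
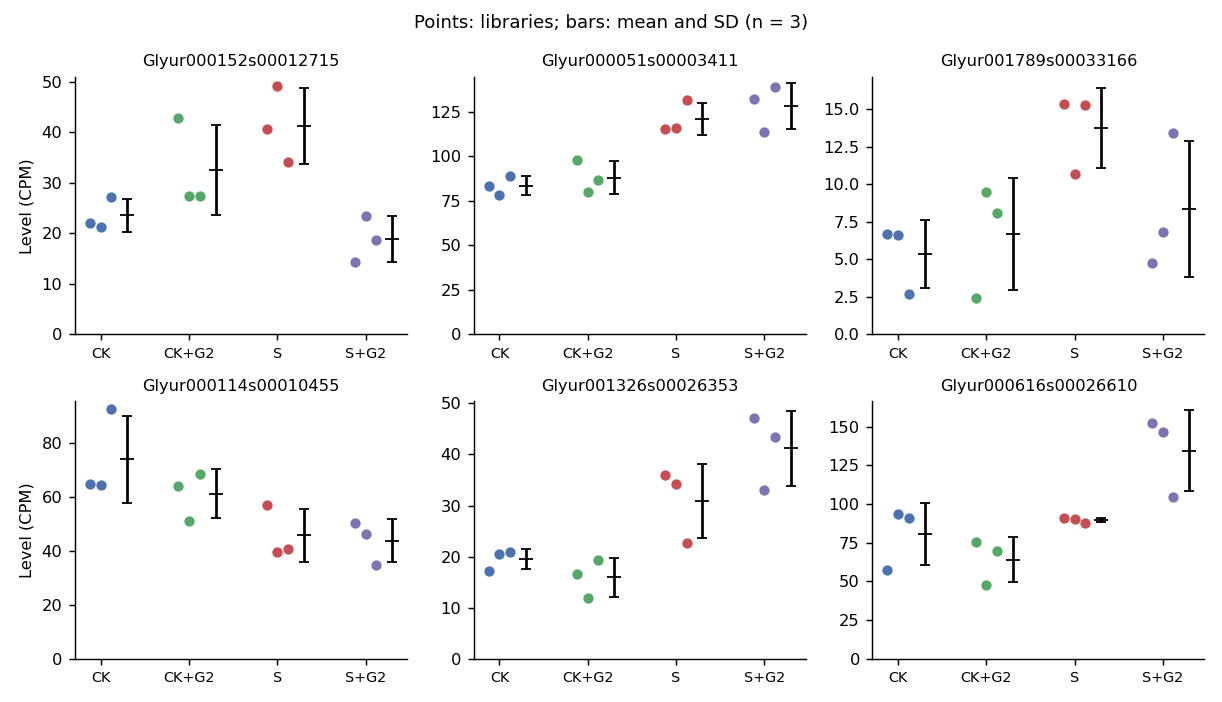
Level in CPM (vertical axis, from 0) of 6 genes with 20 or more exons in the 4 treatments, 1 point per library, with mean and SD beside them (n = 3). The S libraries of Glyur000152s00012715 (34.1 to 49.2 CPM) lie above CK (21.3 to 27.2 CPM) and S + G2 (14.4 to 23.5 CPM), and Glyur000051s00003411 is at 114 CPM or more in all salt libraries.

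Salt in the presence of G2 (S + G2 vs CK + G2) gave 0 calls among the 616 genes by limma and 0 by edgeR. DESeq2 called 3 of 642, all higher, where it called 115 of all 28360 genes. For limma the background was 0.0220% of all genes. Unadjusted, 42 genes (6.82%) were under 0.05 against 9.86% of all genes, 18 higher and 24 lower, or 31 and 14 with TMM scaling. Leaving out CK + G2 replicate 1 raised the count to 66 (10.7%), with 12.7 to 15.3% in the classes of fewer exons. Leaving out CK + G2 replicate 2 or S + G2 replicate 1 lowered it to 24 (3.90%). The classes of fewer exons then stood at 4.52 to 10.5% and at 4.92 to 9.45%, against 8.58 to 11.4% with all 6 libraries. On the first principal component CK + G2 replicate 1 stood at 2.53, away from replicates 2 and 3 at -5.43 and -6.14. With all 6 libraries the median log2 fold change was -0.11 in the 616 genes and -0.09 in all genes tested. Without CK + G2 replicates 2 and 3 it was -0.03 and -0.01. That fit keeps replicate 1 as the single CK + G2 library, assumed to vary like the S + G2 libraries.

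Glyur001326s00026353 (20 exons) showed the lowest p in this comparison. It was at 16.7, 11.8 and 19.3 CPM in CK + G2 and at 47.1, 33.0 and 43.5 CPM in S + G2, a difference of 1.33 ± 0.23 (limma adjusted p = 0.216, DESeq2 8.44e-04, up to 0.927 over the alternatives). Its S libraries, at 36.0, 34.3 and 22.7 CPM, also lay above those of CK, at 17.2, 20.5 and 20.9 CPM, by 0.62 ± 0.20. Glyur000616s00026610, with 23 exons and 98.2% of its reads on the annotated transcript, was at 75.5, 47.6 and 69.5 CPM in CK + G2 and at 153, 147 and 105 CPM in S + G2. That difference was 1.06 ± 0.23 (limma adjusted p = 0.294, DESeq2 0.0131). Glyur001058s00023532 was at 50.6 ± 8.51 CPM in CK + G2 and 87.3 ± 3.87 CPM in S + G2 (limma adjusted p = 0.295, DESeq2 0.0443).

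On the lower side stood Glyur000240s00016389, a gene of 42 exons. It was at 84.2, 86.0 and 160 CPM in CK + G2 and at 54.0, 42.7 and 60.6 CPM in S + G2, a difference of -1.0 ± 0.27 (limma adjusted p = 0.345). Glyur000512s00017073 was at 88.6 ± 17.3 and 55.7 ± 1.86 CPM, and Glyur000455s00015983 at 51.0 ± 5.33 and 33.9 ± 3.15 CPM in the same order (limma adjusted p = 0.380 and 0.383). None of their S + G2 libraries overlapped with CK + G2, but these genes were chosen by their lowest p, which makes such separation likely.

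G2 under salt (S + G2 vs S) gave 0 calls by limma, edgeR and DESeq2, with 0.00440% of all genes called by limma. Unadjusted, 29 genes (4.71%) were under 0.05 against 5.93% of all genes, 16 higher and 13 lower. This count was 12 (1.95%) without S + G2 replicate 1, with 2.42 to 5.56% in the classes of fewer exons. It was 16 (2.60%) without S replicate 2, with 3.09 to 7.07% in those classes. Besides Glyur000152s00012715, the lower side held Glyur000240s00016389, at 117, 78.5 and 81.4 CPM in S against 54.0, 42.7 and 60.6 CPM in S + G2 (-0.79 ± 0.20, limma adjusted p = 0.715). It also held Glyur001529s00032037, at 2.85 ± 0.324 CPM in S and 0.617 ± 0.410 CPM in S + G2 (limma adjusted p = 0.684). On the higher side, Glyur000237s00014415 was at 25.8, 22.5 and 24.4 CPM in S and 37.8, 34.6 and 40.4 CPM in S + G2 (0.61 ± 0.15, limma adjusted p = 0.704). Glyur000616s00026610 was at 89.8 ± 1.56 and 135 ± 26.0 CPM, and Glyur000478s00024539, the gene with the longest span, at 25.4 ± 2.61 and 36.4 ± 5.20 CPM (limma adjusted p = 0.766 and 0.800).

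G2 without salt was compared in CK + G2 vs CK. Limma, edgeR and DESeq2 called 0 of the genes, with 0.0396% of all genes called by limma. Unadjusted, 13 genes (2.11%) were under 0.05 against 6.01% of all genes, 7 higher and 6 lower. The count was 31 (5.03%) without CK + G2 replicate 1, with 6.08 to 11.7% in the classes of fewer exons. With all 6 libraries the median log2 fold change was 0.024 in the genes with 20 or more exons and 0.019 in all genes tested. Without CK replicate 1 and CK + G2 replicates 2 and 3 it was -0.009 and -0.030. That fit compares 2 CK libraries with a single CK + G2 library that is assumed to vary like them. Glyur000361s00013163 had the lowest p, at 7.96 ± 2.18 CPM in CK and 20 ± 8.51 CPM in CK + G2 (1.17 ± 0.35, limma adjusted p = 0.536). Both genes annotated on the strand opposite to it were more abundant than it, at 20.4 and 51.4 CPM against 14.4 CPM, and their part in its values was not tested. Glyur000489s00017498 was at 7.22 ± 0.459 and 11.7 ± 1.12 CPM and Glyur000268s00013364 at 10.9 ± 2.33 and 17.5 ± 2.50 CPM (limma adjusted p = 0.648 and 0.674). Lower in CK + G2 were Glyur000315s00012762, at 49.3 ± 8.50 and 33.6 ± 1.09 CPM, Glyur000027s00001562, at 34.9 ± 2.47 and 25.9 ± 2.18 CPM, and Glyur000910s00020576, at 8.71 ± 3.23 and 3.93 ± 2.83 CPM (limma adjusted p = 0.613, 0.755 and 0.772).

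For the interaction, limma, edgeR and DESeq2 called 0 of the genes, where limma called 0.00440% of all genes, and 32 genes (5.19%) had an unadjusted p under 0.05 against 6.72%. Of these, 13 were positive and 19 negative. After Glyur000152s00012715, the lowest p-values were those of Glyur000489s00017498 (-1.24 ± 0.33, limma adjusted p = 0.537) and Glyur001529s00032037 (-1.35 ± 0.41, limma adjusted p = 0.555). In Glyur000489s00017498 too, the CK and S + G2 means were low (7.22 ± 0.459 and 6.74 ± 1.5 CPM). Its CK + G2 and S means were high (11.7 ± 1.12 and 11.0 ± 3.40 CPM), but its S and S + G2 libraries overlapped. Both genes were chosen by a low p for the interaction, which makes such a crossed pattern likely, so their likeness adds nothing.

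The share of reads on the annotated transcript was compared gene by gene, on the log2 odds, in 326 to 330 of the genes per comparison. Limma called 0 of them in all 4 pairwise comparisons, as it did over all genes (0%), and 12, 16, 15 and 19 had an unadjusted p under 0.05 in S vs CK, S + G2 vs S, CK + G2 vs CK and S + G2 vs CK + G2. These were 3.66, 4.91, 4.55 and 5.76% of the genes with 20 or more exons, each below the 5.91, 5.99, 5.50 and 6.57% of all genes tested. The lowest p was that of Glyur000672s00022930 in S vs CK, where the annotated transcript held 3.54, 4.65 and 4.35% of the reads in CK and 0% in each S library (limma adjusted p = 0.292). That gene averaged 74.7 reads per library, so the difference amounted to a few reads. Taken library by library, a count of 0 allows a share of up to 3.90, 5.17 and 4.05% in S replicates 1 to 3. These limits are 3 reads of 77, 58 and 74, with counting error only. The limit in S replicate 2 lies above every CK value, and those in S replicates 1 and 3 lie above only the lowest.

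A single transcript passed the test where its gene did not. Limma over 43795 transcripts, of which 1193 belonged to the genes with 20 or more exons, called 1 of these in S vs CK, where 0.922% of all transcripts were called. It called 0 in the other contrasts, where the share of all transcripts called was 0.00913% in S + G2 vs S, 0.0297% in CK + G2 vs CK, 0.0320% in S + G2 vs CK + G2 and 0.0228% in the interaction. At an unadjusted p under 0.05 stood 60 of the 1193 transcripts in S vs CK (5.03%, against 12.6% of all transcripts). The counts were 62 in S + G2 vs S (5.20% against 5.95%), 48 in CK + G2 vs CK (4.02% against 6.20%), 91 in S + G2 vs CK + G2 (7.63% against 9.43%) and 68 in the interaction (5.70% against 6.70%). The transcript was ONT.1175.6 of Glyur000019s00002171, a gene of 26 exons on Scaffold00019 (514490 to 532236, minus strand). It was at 5.66, 4.43 and 6.96 CPM in CK and at 23.8, 14.6 and 15 CPM in S, and rose by 1.48 ± 0.26 on the log2 scale (limma adjusted p = 0.0331, edgeR 0.0338). The call was lost without any 1 of the 6 libraries (limma adjusted p = 0.0659 to 0.128) and with a replicate block (0.0520).

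The gene as a whole did not show this, at 31.2 ± 7.85 CPM in CK against 35.7 ± 3.39 CPM in S (0.22 ± 0.20, limma adjusted p = 0.676). ONT.1175.6 took 18.5% ± 2.38 of the reads of Glyur000019s00002171 in CK, 49.3% ± 9.69 in S and 11.1% ± 18.2 in S + G2. In S + G2 replicates 1 and 2 ONT.1175.6 was at 0.266 and 0 CPM, and in replicate 3 at 11.1 CPM, so that 1 of the 3 libraries stood far from the others. ONT.1175.1 held 25.8% ± 5.97 of the reads in S and 72% ± 18.4 in S + G2. It was at 7.83, 9.0 and 10.4 CPM in S and at 17.6, 26.4 and 17.9 CPM in S + G2, without overlap, a difference of 1.08 ± 0.23 (limma adjusted p = 0.461). The first annotated transcript of this gene has no row in the transcript table, and how the assembled transcripts differ in exons was not analysed here. A gene on the opposite strand, Glyur000019s00002173, was at 3.38 ± 1.74 CPM in CK against 5.03 ± 0.972 CPM in S, and its part was not tested.

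**Figure D5:**
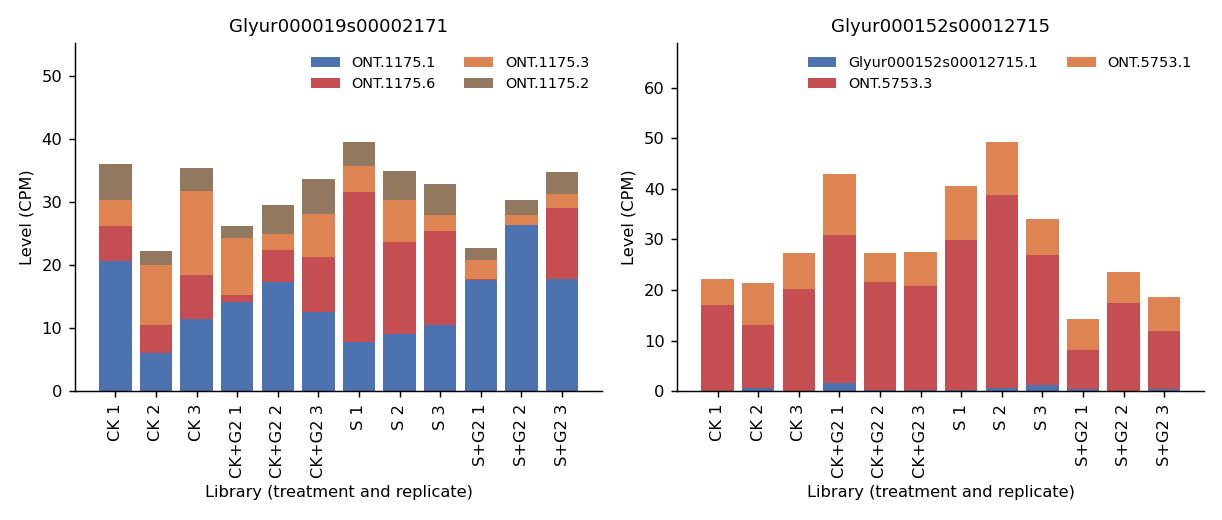
Level in CPM (vertical axis) of each transcript, stacked, in the 12 libraries (horizontal axis) for Glyur000019s00002171 (left) and Glyur000152s00012715 (right). On the left ONT.1175.6 (red) is largest in the S libraries, at 14.6 to 23.8 CPM, while the totals stay within 22.1 to 39.4 CPM; on the right the total changes and ONT.5753.3 (red) takes most of it.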

How the data were processed

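Gene and transcript levels were taken as the CPM values deposited by the authors, who filtered short, low-quality and ribosomal reads, kept and polished full-length reads, and divided the reads of each feature by all mapped reads. Minimap2 is named in the submitters' processing notes, its version being not given in the sources used here; neither is the genome build, nor whether counting used strand. The sample records name a nanopore platform, while the methods also name an Illumina one. Structures came from the deposited annotation. Every CPM value was a whole multiple of 1 read within 0.01 (100% of values), so reads were recovered. Main tests used limma 3.58.1 with a trend on log2(CPM + 1), which understates changes of low genes, on the 6 libraries compared (12 for the interaction), over 22751 genes with at least 1 CPM in 3 libraries. Benjamini-Hochberg adjustment ran over all of them. The methods name 3 biological replicates per sample, with several pots to a replicate; which pots went into which library is not stated, so p-values measure the spread between these libraries. edgeR 4.0.16 and DESeq2 1.42.0 (R 4.3.3) on recovered reads were alternatives. The share test used genes with a mean of at least 20 reads and reads of both kinds, with 0.5 reads added to each. Assembled loci were paired with genes through at least 20 equal reads; locus numbers rose along scaffolds in 11088 of 11135 neighbouring pairs. Genes named were the 6 with the most exons, the 8 with the highest CPM, the 3 with the lowest p per direction and comparison and for the interaction, the 5 highest and 5 lowest shares (ties by identifier) and the extreme spans. Libraries that do not overlap are likely in genes chosen by the lowest p and add nothing to that p. Alternatives were TMM scaling, other filters and pseudocounts, all 12 libraries, a replicate block, other exon limits, the first annotated transcript alone and each library left out. The transcript test, the counts at an unadjusted p, the exon classes within a level range and the choice of Glyur000672s00022930 were added after values were seen, and members and lists were chosen with earlier results of these data known. Scripts were tested on simulated data.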

Additional observations from a re-analysis of the deposited data

How the results depend on the processing

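Among single genes, 27 differences were recomputed in 353 alternatives. All kept their direction, and 6 gained significance, each with DESeq2. These differences had been chosen by their lowest p in the same libraries, so a kept direction was likely and adds no support. In S vs CK, DESeq2 called 3 genes with 20 or more exons, where it called 671 of all 28332. The fit with a replicate block called 1, Glyur000026s00001935, where it called 335 of all 22751. Leaving out single libraries gave 0 to 1, the 1 being Glyur000718s00020280 without CK replicate 1, where 319 of all 22751 were called. In S + G2 vs CK + G2, DESeq2 called 3, where it called 115 of all 28360. With 15 or more exons, 0.127% of genes were called in S vs CK. Calls stayed at 0 in the remaining alternatives for all 5 contrasts and for the share on the annotated transcript, single libraries left out included.

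Counts at an unadjusted p under 0.05 moved more. DESeq2 gave 18 in S vs CK, 14 in S + G2 vs S, 6 in CK + G2 vs CK and 21 in the interaction. The replicate block gave 8 in CK + G2 vs CK. Deviations of same-numbered replicates had correlations from -0.201 to 0.109 over all genes. Over the genes with 20 or more exons they ran from -0.180 to 0.216. With 3 libraries per treatment these values cannot settle whether the numbers pair the libraries. The first annotated transcript alone gave 16 in S + G2 vs S, 25 in S + G2 vs CK + G2 and 18 in the interaction. Leaving out CK replicate 1 and CK + G2 replicates 2 and 3 together was an alternative chosen after seeing the data. It leaves a single CK + G2 library, assumed to vary like the group it is compared with, so no counts are given for it. With 25 or more exons the percent was 2.88 in S + G2 vs S and 2.47 in the interaction. Leaving out single libraries gave 22 to 37 in S vs CK, 12 to 38 in S + G2 vs S and 9 to 31 in CK + G2 vs CK. In S + G2 vs CK + G2 it gave 24 to 66 (3.90 to 10.7%), and 4.49 to 12.7% of the genes with 10 to 19 exons. It gave 16 to 48 in the interaction, with 20 without CK replicate 2 or CK replicate 3 and 16 without S + G2 replicate 1. Transcripts called in S vs CK ranged from 0 to 3 (3 without CK replicate 1, 0 without each of the others).

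The share on the annotated transcript in CK, CK + G2, S and S + G2 was 25.1, 25.8, 25.5 and 25.4% with all annotated transcripts summed. It was 16.6, 17.0, 17.2 and 17.8% in genes with a mean of at least 100 reads, and 24.4% (CK + G2) and 24.1% (S + G2) with at least 10 reads. As a median over genes it was 28.4, 28.8, 29.7 and 30.8%. In genes with a row for the first transcript it was 28.5, 29.3, 29.1 and 28.6%. Leaving out single libraries gave 23.9 to 24.5, 24.6 to 24.9, 24.3 to 25 and 24.4 to 24.5%. The causes of these shifts were not tested. Depth limits low genes: 3 reads correspond to 0.764 to 0.908 CPM.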

Other observations

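Glyur000718s00020280, with 21 exons, was singled out after its values were seen. It was at 27.0, 83.9 and 204 CPM in CK and stood at 37.1, 45.8 and 38.9 CPM in S. Its limma adjusted p in S vs CK was 0.478 with all libraries and 0.0428 without CK replicate 1 (range over the alternatives 0.0428 to 0.853). Glyur000026s00001935, also with 21 exons, was at 11.6, 33.2 and 24.8 CPM in CK, at 2.32, 13.8 and 8.91 CPM in S and at 4.53, 0.528 and 4.14 CPM in S + G2, with a limma adjusted p of 0.206 in S vs CK and 0.0222 with the replicate block.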
